A study of Mus musculus with 6 samples.

Results

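The genes of sterol and fatty acid synthesis were examined in mouse embryonic fibroblasts with and without Stc1, the gene of the secreted glycoprotein stanniocalcin-1. The set was a list of 37 genes, each matched by symbol to the gene names of the deposited files, and 36 of them had a locus among 36828 named loci. Mvd had no locus under that name and was not analysed here. All 36 are protein-coding genes in GENCODE M21. They fall into 5 roles: 7 genes of the mevalonate steps and their branches, 9 genes of the sterol steps, 6 genes that control SREBP or carry sterol, 10 genes of fatty acid synthesis and modification, and 4 genes of the liver X receptors (LXR). All 36 passed the filter on low counts.

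The study compared 3 wild-type (STC1+/+) with 3 knockout (STC1-/-) libraries of polyadenylated RNA, made with a stranded kit from embryonic fibroblasts (MEFs). Both genotypes are labelled with a C57BL/6 background, were grown in DMEM with FCS and Pen/Strep, and received no treatment that the labels name. Nothing in the labels tells which part of Stc1 was disrupted, whether cells were pooled, or whether each library had its own embryo or culture, so a p-value here covers the spread between the 6 libraries, which may be technical. Library totals ran from 21882092 to 71488701 estimated fragments. Stc1 counted 2245, 291 and 368 fragments in wild type against 6, 0 and 0 in knockout. Fibroblast markers (10 loci) summed to between 5796 and 34481 CPM in each library, whereas endothelial and epithelial markers summed to at most 23.7 and 32.8 CPM. In 4 of the 10 fibroblast loci the knockout libraries were all below the wild-type ones, against 5.44% of all loci tested.

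Cells build cholesterol from acetyl-CoA through mevalonate, isoprenoid diphosphates, squalene and lanosterol. The transcription factor SREBP-2, encoded by Srebf2, switches on most of these genes when the endoplasmic reticulum runs low in cholesterol. In that state SCAP escorts SREBP to the Golgi, where it is cut free, whereas INSIG proteins hold the complex back when sterol is plentiful. SREBP-1, encoded by Srebf1, acts more on fatty acid synthesis. LXR responds to oxysterols and switches on cholesterol export through ABCA1 and ABCG1. Fibroblasts in serum can also take up cholesterol in lipoproteins, and macrophages, which can be present in fibroblast cultures, are rich in LXR and its targets.

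Promoter sequences are shown for some of the members whose values the results turn on. SREBP is known to act at sterol response elements together with NF-Y, which binds CCAAT. RefSeq windows of 300 bases (250 before to 50 after a start; GRCm38.p6) were found for 29 of the 36 members, 38 windows in all. Hmgcs1 (chr13:119690101-119690400, plus strand), Mvk (chr5:114444019-114444318, plus), Cyp51 (chr5:4104648-4104947, minus) and Insig1 (chr5:28071162-28071461, plus) had all knockout libraries below all wild-type libraries. Sqle, Fdps, Scd1 and Stard4, which were separated in the same way, had no window. The windows of Srebf2 and Idi1, also separated, are not shown. Fasn (chr11:120824498-120824797, minus) stands for the fatty acid genes, most of which overlapped between genotypes. Each is given 5′ to 3′ on the gene's strand, and capitals mark matches to TCACNCCAC, ATCACNNCA or CCAAT on either strand.
Hmgcs1: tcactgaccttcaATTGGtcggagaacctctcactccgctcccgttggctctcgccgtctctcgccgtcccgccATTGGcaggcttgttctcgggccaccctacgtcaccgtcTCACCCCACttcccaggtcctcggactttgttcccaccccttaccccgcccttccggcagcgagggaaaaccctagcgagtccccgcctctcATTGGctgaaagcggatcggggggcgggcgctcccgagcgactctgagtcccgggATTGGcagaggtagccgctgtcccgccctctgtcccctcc
Mvk: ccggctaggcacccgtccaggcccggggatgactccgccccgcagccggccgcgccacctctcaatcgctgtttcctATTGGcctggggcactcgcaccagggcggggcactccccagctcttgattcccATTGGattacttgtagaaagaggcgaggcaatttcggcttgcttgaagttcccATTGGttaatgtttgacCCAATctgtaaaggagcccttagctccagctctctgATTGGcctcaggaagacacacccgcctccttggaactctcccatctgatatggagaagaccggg
Cyp51: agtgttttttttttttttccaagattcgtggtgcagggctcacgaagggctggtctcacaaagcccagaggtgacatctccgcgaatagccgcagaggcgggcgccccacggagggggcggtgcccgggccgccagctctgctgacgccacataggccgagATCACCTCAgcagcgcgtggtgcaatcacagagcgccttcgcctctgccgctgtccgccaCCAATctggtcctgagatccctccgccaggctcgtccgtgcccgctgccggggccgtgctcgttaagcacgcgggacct
Insig1: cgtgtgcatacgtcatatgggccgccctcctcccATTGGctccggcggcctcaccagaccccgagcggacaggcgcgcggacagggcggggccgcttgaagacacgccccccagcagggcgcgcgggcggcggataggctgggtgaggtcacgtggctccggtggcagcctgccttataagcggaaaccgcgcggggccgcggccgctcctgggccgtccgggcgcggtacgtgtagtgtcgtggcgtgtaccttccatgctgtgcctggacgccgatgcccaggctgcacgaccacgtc
Fasn: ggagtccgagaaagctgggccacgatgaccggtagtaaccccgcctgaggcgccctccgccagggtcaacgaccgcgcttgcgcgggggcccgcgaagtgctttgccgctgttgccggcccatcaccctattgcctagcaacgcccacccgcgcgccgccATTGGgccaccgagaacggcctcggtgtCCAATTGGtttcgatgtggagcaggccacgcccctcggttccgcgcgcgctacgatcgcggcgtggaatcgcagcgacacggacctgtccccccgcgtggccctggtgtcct

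The Hmgcs1 window held TCACCCCAC, with its first base 137 bases before the start, and 4 CCAAT boxes on the reverse strand. The Mvk window held 5 CCAAT boxes on either strand and the Insig1 window 1. The Cyp51 window held ATCACCTCA, 89 bases before the start, and 1 CCAAT box. The Fasn window held 3 CCAAT boxes, of which a pair overlap. Over all members, CCAAT was present in 5 of 7 windows of mevalonate genes, 8 of 10 of sterol genes, 5 of 10 of SREBP control genes, 3 of 7 of fatty acid genes and 0 of 4 of LXR genes, against 37.4% of all 32851 windows. TCACNCCAC was present in 1 of 38 member windows (Hmgcs1) and in 1.24% of all windows. ATCACNNCA was present in 2 of 38 (Cyp51 and Srebf2) and in 2.77% of all windows of the same length, and a stretch can match both patterns. These matches describe letters in a short window and were searched for after the values were known.

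The first question was whether the genes of the mevalonate steps differed between genotypes. Of the 7, 6 had a negative log2 fold change of knockout against wild type (median -0.54), and in 4 of them, Hmgcs1, Mvk, Idi1 and Fdps, the 3 knockout values were all below the 3 wild-type values. Among all 15673 loci tested, 5.44% had such a separation downward, 55.6% had a negative log2 fold change and the median was -0.05. None of the 7 passed edgeR's quasi-likelihood test over all loci (adjusted p of 0.763 or more), which called 0.0% of all loci in either direction.

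Hmgcs1 (chr13:119690357-119708180, plus strand) makes HMG-CoA, the precursor of mevalonate. Wild-type replicates 1, 2 and 3 had 169, 208 and 144 CPM and knockout replicates 1, 2 and 3 had 113, 114 and 94.7 CPM, where CPM is the fragment count scaled to library size with TMM factors. The genotypes did not overlap, and the knockout mean was 61.6% of the wild-type mean. The log2 fold change was -0.70 (standard error 0.18, edgeR unadjusted p = 0.0088, adjusted p = 0.763). DESeq2 gave an adjusted p of 0.315, and over all alternatives the adjusted p was 0.206 or more.

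Mvk (chr5:114442043-114460591, plus strand) phosphorylates mevalonate. It stood at 43.2, 33.4 and 42.6 CPM in wild-type and 28.8, 27.5 and 25.8 CPM in knockout libraries. All knockout libraries lay below the lowest wild-type library, replicate 2. Mvk is overlapped on the opposite strand by Mmab, which had 2759, 1432 and 1405 fragments in wild-type and 547, 1039 and 1064 in knockout libraries, against 3049, 1424 and 2059 and 614, 1026 and 1165 for Mvk. Whether strand was used in counting is not stated, so the level of Mvk is uncertain to that extent. The log2 fold change was -0.54 (standard error 0.16, edgeR unadjusted p = 0.0151, adjusted p = 0.763).

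Idi1, the isomerase that makes dimethylallyl diphosphate, was the least abundant member per length, at 1.75 FPKM over all libraries (fragments scaled by transcript length and library depth). Its level was 8.17, 5.83 and 8.24 CPM in wild-type and 5.17, 4.53 and 2.93 CPM in knockout libraries (log2 fold change -0.82, standard error 0.31). Fdps, which joins isoprenoid units to farnesyl diphosphate, stood at 35.4, 25.3 and 26.4 against 23.0, 18.1 and 16.4 CPM (log2 fold change -0.60, standard error 0.22), in a locus that also carries a U6 name. In both genes the separation from the lowest wild-type library was narrow, 5.17 against 5.83 CPM for Idi1 and 23.0 against 25.3 CPM for Fdps. Pmvk, the next kinase of the pathway, overlapped by 1 library, since knockout replicate 1 at 17.1 CPM lay above wild-type replicate 2 at 16.7 CPM.

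The remaining 2 genes stood apart from these. Acat2, the cytosolic thiolase that makes acetoacetyl-CoA, reached 64.3 CPM in wild-type replicate 1 and lay between 29.6 and 42.9 CPM in all other libraries (log2 fold change -0.15, standard error 0.36). The locus of Ggps1, which makes geranylgeranyl diphosphate, ranged from 72.5 to 86.8 CPM (log2 fold change 0.09, standard error 0.12). That locus is shared with Tbce and was marked FAIL in 1 library, so the level of Ggps1 alone is not known from it.

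**Figure D1:**
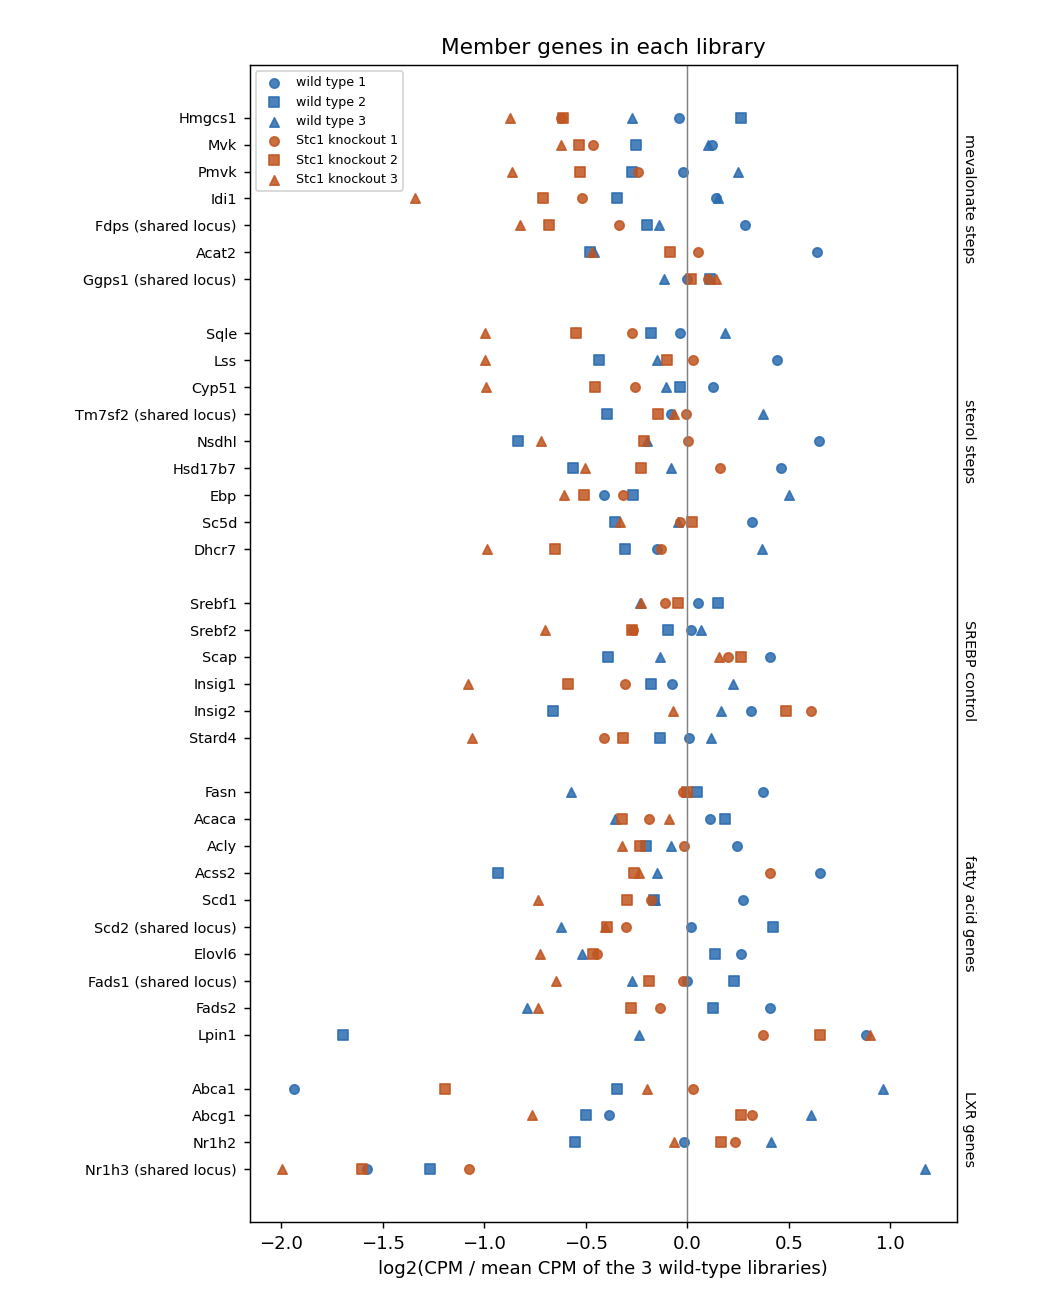
Level of each of the 36 member genes in each library, as log2 of CPM over the mean CPM of the 3 wild-type libraries, with genes grouped by role. Wild-type libraries are blue and knockout libraries orange, and marker shape gives the replicate. For Hmgcs1, Mvk, Idi1, Fdps, Sqle, Cyp51, Srebf2, Insig1, Stard4 and Scd1 all orange points lie left of all blue points.

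The sterol steps came next. All 9 genes had a negative log2 fold change, with a median of -0.29, and 2 of 9, Sqle and Cyp51, had knockout libraries all below wild-type libraries (5.44% of all loci). Sqle is the squalene epoxidase, a rate-limiting oxygenase, and Cyp51 removes a methyl group from lanosterol.

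Sqle (chr15:59315029-59332360, plus strand) stood at 144, 131 and 168 CPM in wild-type and 122, 101 and 74.1 CPM in knockout libraries. The nearest libraries were knockout replicate 1 and wild-type replicate 2. The log2 fold change was -0.57 (standard error 0.22, edgeR unadjusted p = 0.041, adjusted p = 0.763). Cyp51 (chr5:4081145-4104746, minus strand) stood at 192, 172 and 164 CPM in wild-type and 147, 129 and 88.6 CPM in knockout libraries. Its log2 fold change was -0.54 (standard error 0.22, edgeR unadjusted p = 0.0477, adjusted p = 0.763). In both genes knockout replicate 3 was the lowest of all 6 libraries. Both are also overlapped on the opposite strand, and their levels are uncertain in the same way. E430025E21Rik, which overlaps Sqle, had 19249, 7313 and 11677 fragments in wild-type and 5885, 10097 and 12375 in knockout libraries, more than Sqle in each. Akap9, which overlaps Cyp51, had 6198, 3435 and 3765 against 1356, 2924 and 2134 fragments, fewer than Cyp51 in each.

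The other 7 sterol genes overlapped between genotypes. Dhcr7, the last reductase before cholesterol, had a log2 fold change of -0.55 (standard error 0.29), with 31.4, 28.2 and 45.0 CPM in wild-type and 31.9, 22.2 and 17.6 CPM in knockout libraries. Ebp, the sterol isomerase, had -0.47 (standard error 0.28), and there wild-type replicate 3 at 46.6 CPM stood above all other libraries, which lay between 21.6 and 27.3 CPM. Lss, the lanosterol synthase, and Nsdhl, which acts in removal of methyl groups from the ring, had -0.29 and -0.28 with standard errors of 0.35 and 0.41. Nsdhl ranged within wild-type libraries alone from 35.5 to 99.0 CPM. Hsd17b7, the sterol ketoreductase, Sc5d, the sterol desaturase, and the Tm7sf2 locus had -0.17, -0.11 and -0.07. The Tm7sf2 locus also carries Vps51 and Zfpl1, so its level is not that of the sterol reductase Tm7sf2 alone.

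The libraries differed in a like way over these genes. Of the 16 mevalonate and sterol genes, knockout replicate 3 was the lowest knockout library for 14, and wild-type replicate 2 the lowest wild-type library for 12. Relative to the wild-type mean, the median of the 16 genes was 0.13, -0.26 and -0.02 on the log2 scale in wild-type replicates 1 to 3 and -0.16, -0.45 and -0.69 in knockout replicates 1 to 3. By this median knockout replicate 1 stood above wild-type replicate 2. In 8 of the 10 genes whose genotypes overlapped, wild-type replicate 2 was the lowest wild-type library. That library was also the highest for summed proliferation markers, at 1882 CPM against 515 to 733 CPM in the others, and for summed fibroblast markers, at 34481 CPM against 5796 to 13338 CPM. The part of these differences in the result was not tested.

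The number of the 16 genes with all knockout libraries below all wild-type libraries was 6 (5.44% of all loci). It was 6 without knockout replicate 3, 6 without knockout replicate 2, 9 without knockout replicate 1, 7 without wild-type replicate 1 or without wild-type replicate 2, and 6 without wild-type replicate 3. Over all loci the share with each library left out was, in the same order, 9.69%, 8.35%, 8.96%, 18.4%, 8.22% and 13.0%. On the upper side 1 of the 16 was separated without wild-type replicate 2 (7.79% of all loci). It was 0 with all 6 libraries (5.18%) and with any other library left out (7.41% to 19.7%). The median log2 fold change was more mobile for the sterol steps than for the mevalonate steps. It was -0.10 for the sterol steps without wild-type replicate 1 and also -0.10 without knockout replicate 3, whereas that of the mevalonate steps ran from -0.68 to -0.46 over the 6 libraries left out.

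**Figure D2:**
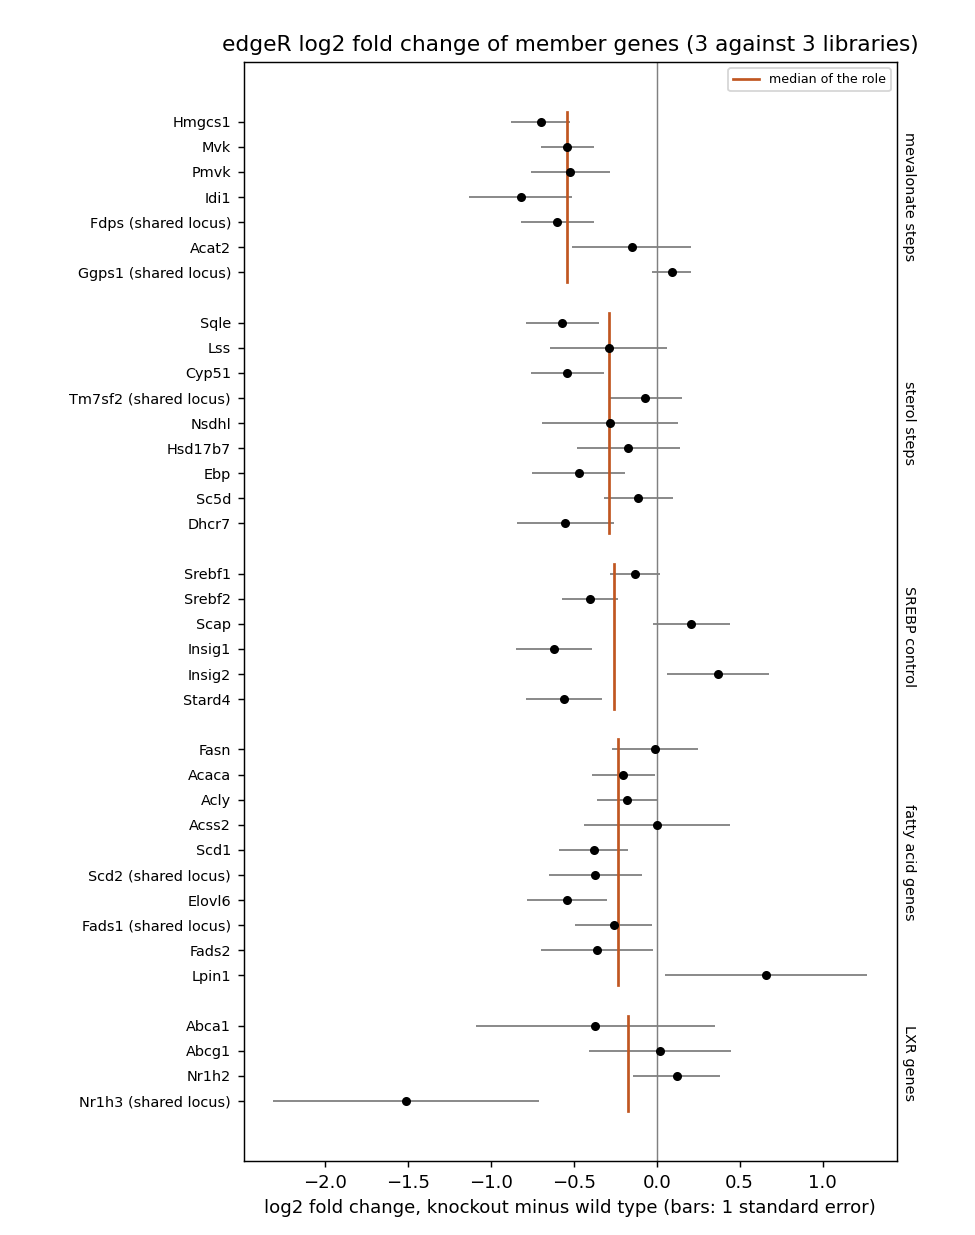
Log2 fold change of knockout against wild type for each member gene from edgeR, with bars of 1 standard error and an orange line at the median of each role. The mevalonate genes have the lowest median, -0.54, and no member passed an adjusted p under 0.05.

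Genes that control SREBP split by member. Srebf2, Insig1 and Stard4 had knockout libraries all below wild-type libraries, while Scap, Insig2 and Srebf1 overlapped (5.44% of all loci were separated downward). None of the 6 passed edgeR's test (adjusted p from 0.763 to 0.808), and 2 of 6 had an unadjusted p under 0.05, against 2.27% of all loci on the lower side.

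Srebf2 (chr15:82147218-82205428, plus strand) stood at 227, 210 and 235 CPM in wild-type and 186, 185 and 138 CPM in knockout libraries. Its log2 fold change was -0.40 (standard error 0.17, edgeR unadjusted p = 0.0545, adjusted p = 0.763). Srebf1 (chr11:60184989-60222848, minus strand) stood at 145, 155 and 119 against 129, 135 and 119 CPM, with overlapping genotypes and a log2 fold change of -0.13 (standard error 0.15). Srebf1 thus ranged from 119 to 155 CPM over all 6 libraries. It is overlapped on the opposite strand by Rai1, at 1387 to 5362 fragments, which limits its level and its ratio to Srebf2.

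Insig1 (chr5:28071320-28078664, plus strand), itself a target of SREBP, stood at 97.2, 90.6 and 120 CPM in wild-type and 82.9, 68.2 and 48.6 CPM in knockout libraries. Its log2 fold change was -0.62 (standard error 0.23, edgeR unadjusted p = 0.0373, adjusted p = 0.763). Insig2, the paralog that acts on SCAP in the same way and is known to be less dependent on SREBP, stood at 74.4, 37.8 and 67.1 against 91.2, 83.7 and 56.9 CPM (log2 fold change 0.37, standard error 0.31). Insig2 overlapped between genotypes and went the other way from Insig1 in sign.

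Stard4, a carrier of cholesterol between membranes and a known SREBP target, stood at 60.4, 54.8 and 65.1 against 45.3, 48.3 and 28.8 CPM (log2 fold change -0.56, standard error 0.23, edgeR unadjusted p = 0.0482). Scap stood at 169, 97.1 and 116 against 146, 153 and 142 CPM (log2 fold change 0.21, standard error 0.23). The knockout libraries of Scap lay close together and inside the wild-type range. Scap is overlapped on the opposite strand by Ptpn23, at 4144 to 12961 fragments.

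Taking a ratio within each library removes its scaling. Per length, Insig1 over Insig2 was 0.676, 1.234 and 1.193 in wild-type and 0.487, 0.425 and 0.474 in knockout libraries. Every knockout ratio lay below every wild-type ratio, and wild-type replicate 1 was the nearest. Srebf1 over Srebf2 was 0.671, 0.841 and 0.672 in wild-type and 0.944, 0.901 and 0.945 in knockout libraries. Srebf2 was the more abundant of the pair in all 6 libraries, and the knockout ratios were the higher ones by FPKM. By CPM the ratio of Srebf1 over Srebf2 overlapped between genotypes. Wild-type replicate 2 had 155 CPM of Srebf1 to 210 CPM of Srebf2, and knockout replicate 1 had 129 CPM to 186 CPM. These 2 ratios were among 6 pairs examined, chosen after the values of single genes were known. Insig1 and Srebf2 were already separated as single genes, and the share of separated ratios over all possible pairs was not computed. For the other 4 the genotypes overlapped by FPKM (Scd1 over Scd2, Nr1h3 over Nr1h2, Abca1 over Abcg1 and Fads2 over Fads1). A ratio shows unequal levels of a pair and not which member moved.

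**Figure D3:**
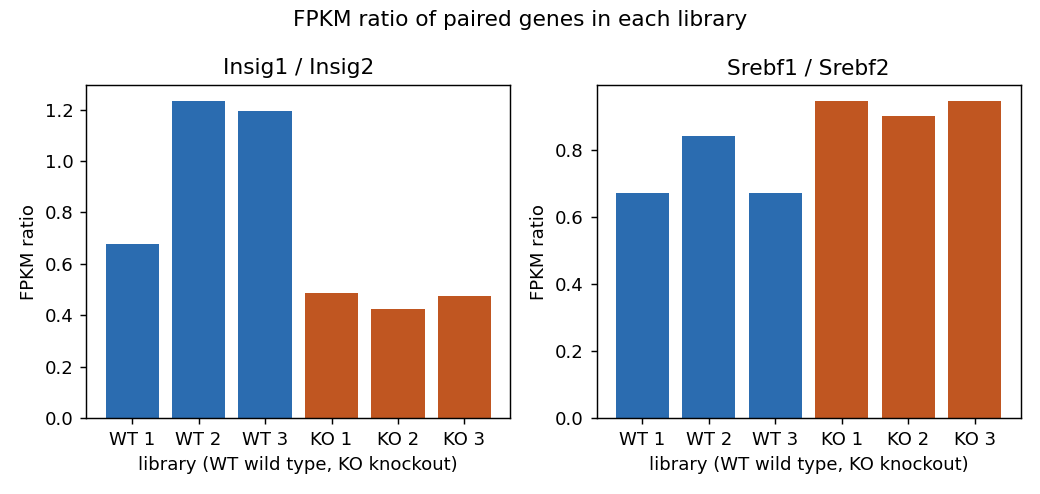
FPKM ratio of Insig1 over Insig2 (left) and of Srebf1 over Srebf2 (right) in each library, with wild type (WT) in blue and knockout (KO) in orange. Knockout ratios lie between 0.425 and 0.487 on the left and between 0.901 and 0.945 on the right. By CPM the ratio on the right overlaps between genotypes.

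The fatty acid genes were compared next. Of 10 genes, 8 had a negative log2 fold change, with a median of -0.23, and 1 of 10, Scd1, had knockout libraries all below wild-type libraries (5.44% of all loci). None passed edgeR's test (adjusted p from 0.763 to 0.999). An edgeR unadjusted p under 0.05 was seen for 0 of 10, against 2.27% of all loci lower and 1.6% higher. Whether their median differs from the -0.54 of the mevalonate genes was not tested.

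Fasn (chr11:120805940-120824178, minus strand), the fatty acid synthase, stood at 563, 450 and 292 CPM in wild-type and 429, 434 and 434 CPM in knockout libraries. The knockout libraries lay close together, inside the much wider range of the wild-type libraries. The log2 fold change was -0.01 (standard error 0.26, edgeR unadjusted p = 0.974). Acly, which makes cytosolic acetyl-CoA from citrate, had 542, 398 and 433 against 452, 389 and 367 CPM (log2 fold change -0.18, standard error 0.18). Acaca, the carboxylase that makes malonyl-CoA, had -0.20 (standard error 0.19), and Acss2, which makes acetyl-CoA from acetate, had 0.00 (standard error 0.44).

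Scd1 and Scd2 encode desaturases that make monounsaturated fatty acids. Scd1 (chr19:44394451-44407895, minus strand) stood at 231, 170 and 171 CPM in wild-type and 169, 156 and 115 CPM in knockout libraries. The separation was 169 against 170 CPM at its narrowest, and the log2 fold change was -0.38 (standard error 0.21, edgeR unadjusted p = 0.124). The Scd2 locus, which also carries Scd3, was the most abundant of all members at 104 FPKM. It stood at 800, 1060 and 514 against 643, 602 and 598 CPM (log2 fold change -0.37, standard error 0.28), and wild-type replicate 3 was the lowest library.

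Elovl6, the elongase of saturated chains, had the lowest p of this role. Its level was 62.9, 57.6 and 36.5 CPM in wild-type and 38.5, 37.9 and 31.7 CPM in knockout libraries (log2 fold change -0.54, standard error 0.24, edgeR unadjusted p = 0.063). Wild-type replicate 3 lay among the knockout libraries. Fads2, the first desaturase of polyunsaturated chains, stood at 169, 139 and 73.6 against 116, 105 and 76.4 CPM, with wild-type replicate 3 below all others. The Fads1 locus, which also carries Fads3, had a log2 fold change of -0.26 (standard error 0.23). It overlaps Fads2 on the opposite strand, and whether the counting used strand is not stated in the sources used here. Without wild-type replicate 3, 7 of the 10 fatty acid genes had knockout libraries all below the remaining wild-type libraries, where 13.0% of all loci did. The fatty acid median was then -0.37, and it was -0.12 without wild-type replicate 1.

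Lpin1, a phosphatidate phosphatase known also as a coactivator of fatty acid oxidation genes, had the highest log2 fold change among members, 0.66 (standard error 0.61). It stood at 73.3, 12.3 and 33.8 CPM in wild-type and 51.5, 62.7 and 74.2 CPM in knockout libraries. Wild-type replicate 1 lay with the knockout libraries, and wild-type replicate 2 was the lowest. Without wild-type replicate 1 the log2 fold change was 1.46, and without wild-type replicate 2 it was 0.24.

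Of the LXR genes, 2 of 4 had a negative log2 fold change, with a median of -0.17 that limma placed at 0.01 (FPKM with a pseudocount of 1) and 0.04 (pseudocount of 0.1). By edgeR 0 of 4 had an unadjusted p under 0.05, against 2.27% of all loci lower and 1.6% higher. The genotypes were separated for 0 of 4, against 5.44% of all loci downward and 5.18% upward. Abca1 (chr4:53030787-53159969, minus strand), the cholesterol export pump, stood at 38.7, 117 and 289 CPM in wild-type and 151, 64.9 and 129 CPM in knockout libraries. Its wild-type libraries thus held both the lowest and the highest level of the 6. The log2 fold change was -0.37 (standard error 0.72, edgeR unadjusted p = 0.633), and it was 0.57 without wild-type replicate 3 and -0.81 without wild-type replicate 1. Abcg1, the partner in export to HDL, stood at 18.1, 16.7 and 36.1 against 29.5, 28.4 and 13.9 CPM (log2 fold change 0.02, standard error 0.43).

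The locus of Nr1h3, which encodes LXR alpha, is shared with Madd and the predicted gene Gm13783. It stood at 13.2, 16.4 and 88.6 CPM in wild-type and 18.7, 13.0 and 9.87 CPM in knockout libraries. The log2 fold change of -1.51 (standard error 0.80, edgeR unadjusted p = 0.107) rested on wild-type replicate 3, without which it was -0.10. Nr1h2, which encodes the widely expressed LXR beta, stood at 76.4, 52.6 and 103 against 90.8, 86.6 and 73.8 CPM (log2 fold change 0.12, standard error 0.26). All 4 LXR genes were highest in wild-type replicate 3.

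Macrophage markers were also highest in that library. The 17 loci of the list summed to 415.5, 1714 and 13079.5 CPM in the wild-type libraries, against 1683, 525 and 582 CPM in the knockout ones. Genotypes overlapped for all 17 and no marker was at 0 in any library, though some were near it. In wild-type replicate 1 most of the sum was Cd68 at 199.5 CPM and Fcer1g at 182.9 CPM, with C1qa at 0.255 CPM. Like sums could also differ in make-up. C1qa was at 90.5 CPM in wild-type replicate 2 and 2.91 CPM in knockout replicate 1, while Itgam was at 69.3 and 121.6 CPM. Abca1 did not follow the markers throughout, as knockout replicate 3 had 129 CPM of Abca1 at 582 CPM of markers and wild-type replicate 2 had 117 CPM at 1714 CPM. The part of macrophages in the LXR genes was not tested, and in bulk RNA fewer cells of a type cannot be told apart from less RNA per cell. Of 10 adipocyte markers, Cidec and Lep were at 0 in all libraries, Adipoq was 0.248 CPM or less, and Plin1, Cfd and Retn were 0.166 CPM or less. Others were present in every library. Fabp4 stood at 10.1, 6.68 and 78.3 CPM in wild-type and 31.3, 18.3 and 15.0 CPM in knockout libraries. Pparg ranged from 4.18 to 19.3 CPM and Plin4 from 2.39 to 10.5 CPM. The summed adipocyte level of 1267 CPM in wild-type replicate 3, against 36.4 to 104 CPM elsewhere, was mostly Lpl at 1161 CPM, which macrophages also express.

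**Figure D4:**
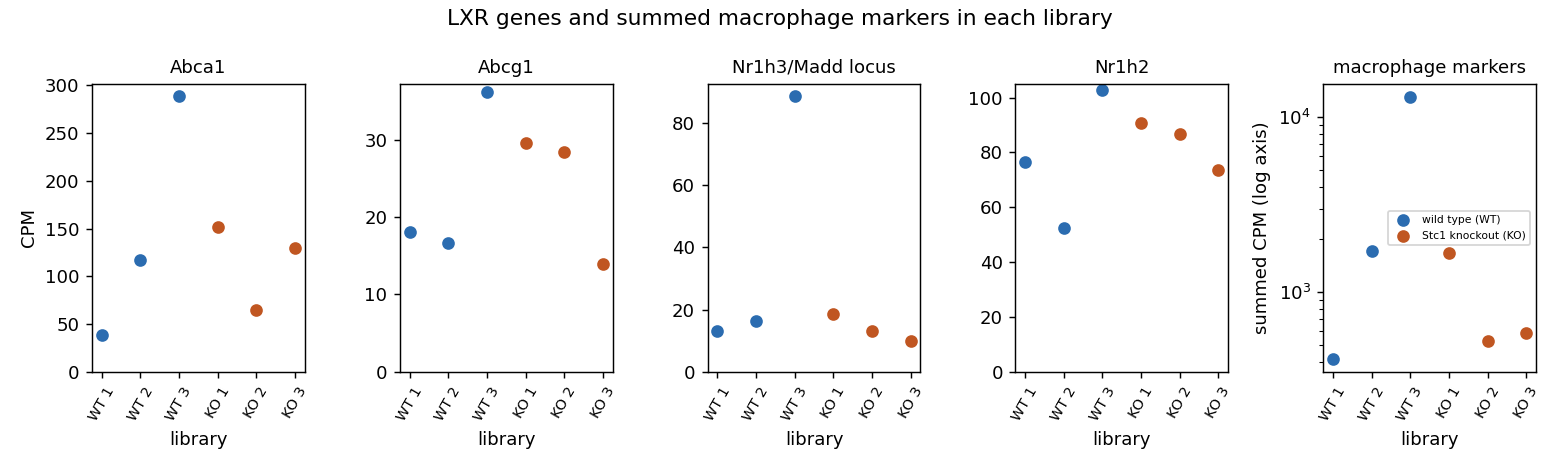
CPM of the LXR genes (linear axes from 0) and summed CPM of 17 macrophage marker loci (log axis) in each library, with wild type in blue and knockout in orange. Wild-type replicate 3 is highest in every panel, at 289 CPM for Abca1 and 13079.5 CPM for the markers.

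The comparison was repeated without the 3 libraries richest in macrophage markers (wild-type replicates 2 and 3 and knockout replicate 1). This left 1 wild-type library, assumed to vary like the knockout libraries. All 9 sterol genes were negative with a median of -0.72, 6 of 7 mevalonate genes were negative with a median of -0.70, and all 10 fatty acid genes were negative with a median of -0.47. The LXR median was 0.15, and Abca1 had a log2 fold change of 1.33. Over all loci the median was 0.01 in that fit. The remaining wild-type library, replicate 1, was the highest of all 6 libraries for 8 of the 16 mevalonate and sterol genes, and no member passed an adjusted p under 0.05.

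**Figure D5:**
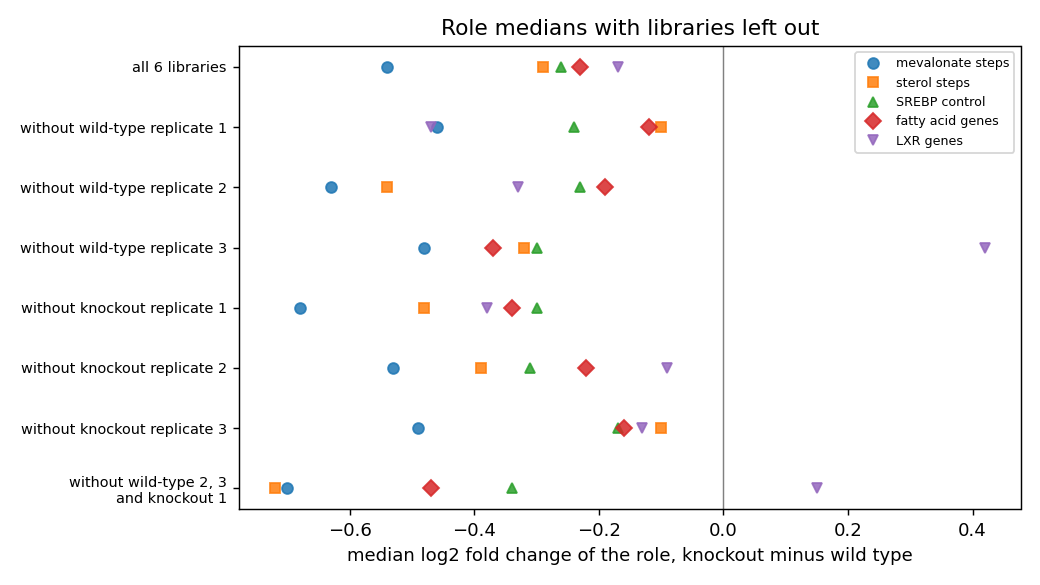
Median log2 fold change of each role with all 6 libraries and with libraries left out. The mevalonate median stays between -0.70 and -0.46, the sterol median moves between -0.72 and -0.10, and the LXR median changes sign, from -0.47 without wild-type replicate 1 to 0.42 without wild-type replicate 3.

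Over the 36 members, edgeR's quasi-likelihood test called 0, DESeq2 0 and limma on log2(FPKM + 1) 0 at an adjusted p under 0.05. At an unadjusted p under 0.05 edgeR placed 8 members lower and 0 higher, DESeq2 9 lower and 0 higher, and limma 7 lower and 0 higher. The 8 by edgeR were Hmgcs1, Mvk, Idi1, Fdps, Sqle, Cyp51, Insig1 and Stard4. At that p edgeR placed 2.27% of all loci lower and 1.6% higher, DESeq2 3.24% lower and 1.93% higher, and limma 0.893% lower and 3.16% higher. At an adjusted p under 0.05 DESeq2 called 0.135% of all loci lower and 0.123% higher.

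The number of members with an unadjusted p under 0.05 in edgeR moved with the libraries left out. Without wild-type replicate 1 it was 3 lower and 2 higher of 36 (8.33% and 5.56%), against 8.31% and 10.1% of all loci, so the share on the lower side was at the background. Without knockout replicate 3 it was 1 lower (0.722% of all loci lower) and without knockout replicate 2 it was 2 lower (0.842%). It was 8 lower without knockout replicate 1 (0.877%), 7 lower without wild-type replicate 2 (1.11%) and 7 lower without wild-type replicate 3 (3.72%). Without the 3 libraries richest in macrophage markers it was 17 lower (1.4%). In these 6 fits 0 members were on the higher side, where the share of all loci was 0.972% without knockout replicate 3, 1.22% without replicate 2 and 0.858% without replicate 1, 1.19% without wild-type replicate 2, 1.6% without replicate 3, and 2.09% without the 3 libraries. The authors' deposited table listed 15 of the 36 members, of which 10 were lower and 5 higher in knockout cells, each with a q-value of 1.0. Of its 29368 rows, 8799 had the status OK and 17 a q-value under 0.05. Of the members whose genotypes did not overlap, only Idi1 and Scd1 were listed. Hmgcs1, Mvk, Fdps, Sqle, Cyp51, Srebf2, Insig1 and Stard4 were not. In the authors' deposited table the lowest log2 fold change among members was -0.77, for Idi1, and the highest 0.70, for Lpin1.

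Levels differed between members per length, and the roles overlapped, as the fatty acid genes alone ran from 104 FPKM (the Scd2 locus) to 5.77 FPKM (Acss2). The 4 most abundant members by mean FPKM were fatty acid genes, the Scd2 locus at 104 FPKM, the Fads1 locus at 87.9, Acly at 86.2 and Fasn at 53.3 FPKM. The mevalonate and sterol genes reached up to 47.4 FPKM (the Tm7sf2 locus), with Sc5d at 37.6, Sqle and Hmgcs1 both at 35.1 and Cyp51 at 32.2 FPKM. Next to Idi1, the least abundant were Abcg1 at 5.03, the Nr1h3 locus at 5.33, Acss2 at 5.77 and Elovl6 at 5.98 FPKM.

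Other genes of lipid metabolism were read from lists outside the members. Of 9 tested loci of further sterol genes, 7 were negative with a median of -0.44, and 3 had knockout libraries all below wild-type libraries (5.44% of all loci). Tmem97, a sterol-regulated membrane protein gene, had a log2 fold change of -0.59 (standard error 0.24), and Sc4mol, the sterol methyl oxidase now named Msmo1, had -0.58 (standard error 0.29). Fdft1, the squalene synthase, carries the HIDATA mark and is not analysed here. No gene of this list passed edgeR's test (adjusted p of 0.763 or more).

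Of 13 genes that use isoprenoids, 9 were negative with a median of -0.06, and the lowest p was that of Pggt1b, a subunit of geranylgeranyl transferase (log2 fold change -0.54, standard error 0.19). Of 16 loci of cholesterol uptake and transport, 10 were negative with a median of -0.07, which was 0.37 without wild-type replicate 3. The lipoprotein receptor gene Vldlr stood at 62.5, 72.7 and 45.3 against 80.6, 77.0 and 115 CPM and Ch25h, which makes an oxysterol that restrains SREBP and activates LXR, at 58.9, 15.8 and 9.93 against 77.8, 78.0 and 61.7 CPM. For both, all knockout libraries lay above all wild-type libraries (5.18% of all loci), with log2 fold changes of 0.59 and 1.36 and standard errors of 0.25 and 0.67, and neither passed edgeR's test (adjusted p = 0.763 for both). The locus of Apoe, shared with Tomm40, was at 5363 CPM in the third wild-type library and at most 319 CPM elsewhere, alongside the macrophage markers. Of 19 loci of other fatty acid and triglyceride genes, 9 were negative with a median of 0.06, with Acsl3 (locus shared with Utp14b) at -0.53, Elovl5 at -0.55 and Dgat2, which completes triglycerides, at 0.84 on the log2 scale. Of 9 loci of further LXR targets and partners, 6 were negative with a median of -0.21, which was 0.12 without wild-type replicate 3.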

How the data were processed

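Sequencing libraries of 3 wild-type and 3 Stc1 knockout fibroblast samples were used as deposited. CASAVA (1.8.2), TopHat2 (2.0.6), Cuffdiff (2.0.1) and build mm10 are named, with no role or order, per the submitters' processing notes. Each deposited library file lists estimated fragments and FPKM per locus, per the file headers. These expected counts by the authors are not whole for 24.0% to 24.6% of values above 0 and were rounded for the count tests. The FPKM by the authors are per length. The authors' deposited table holds mean FPKM, log2 fold changes, p-values and q-values, which were copied and not recomputed.

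Of 39495 loci, 2667 without a gene name (0.507% to 0.555% of fragments) and 16 marked HIDATA were left out. Loci marked FAIL stayed in. The test was edgeR's quasi-likelihood F test (version 4.0.16, R 4.3.3) with filterByExpr, TMM factors and robust fitting, adjusted by Benjamini-Hochberg over 15673 loci at a threshold of 0.05. The standard error is the log2 fold change divided by the square root of F. The common biological coefficient of variation was 0.467, so the spread between libraries more than counting limits precision. Alternatives were DESeq2 (1.42.0), limma (3.58.1) on log2 FPKM with a pseudocount of 1 or 0.1, RLE factors, no filter, loci marked FAIL left out, loci marked HIDATA kept, and libraries left out. The code of the fits was run on simulated counts with fold changes larger than those of most members. The power to call changes as small as those of most members was not measured.

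Members, roles and lists were chosen with earlier results of these data known. Values in every library were planned for the 2 members of each role with the lowest p and for Srebf1, Srebf2, Insig1, Fasn, Scd1, Scd2, Abca1 and Nr1h3, and up to 3 genes with the lowest p were named from each further list. Further members given per library, the gene pairs, the motifs and the separation counts with libraries left out were chosen after values were seen. Of the 36 members, 6 share a locus with other genes and 14 are overlapped on the opposite strand, so their reads may be mixed. Of the 10 members whose genotypes did not overlap, Mvk, Sqle and Cyp51 have such an opposite-strand neighbour. Replicate numbers follow accession order. A gene that the rule on further lists would name is not reported here.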

Additional observations from a re-analysis of the deposited data

How the results depend on the processing

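No paired analysis was possible because the labels give no replicate numbers that the genotypes share. Over all loci edgeR called 0 (356 lower and 251 higher at an unadjusted p under 0.05), also with each library left out (0 to 0), while DESeq2 called 61, limma on log2(FPKM + 0.1) called 1, and edgeR with HIDATA loci kept called 8. No member was called under any alternative, and 23 of 36 kept their direction under all of them. Without the 3 libraries richest in macrophage markers the sterol median was -0.72, and log2 fold changes changed sign for Scap (-0.20), Insig2 (-0.08), Acss2 (-0.91), Lpin1 (-0.10) and Abca1 (1.33). Acss2 was at -0.0 with no filter. With limma at both pseudocounts Tm7sf2 was at 0.02, Sc5d at 0.01 and Fasn at 0.09, and Abca1 was at 0.01 with a pseudocount of 0.1. With 1 library left out at a time the log2 fold change ran from -0.34 to 0.33 for Acat2, -0.22 to 0.16 for Tm7sf2, -0.55 to 0.21 for Nsdhl, -0.37 to 0.14 for Hsd17b7, -0.24 to 0.09 for Sc5d, -0.23 to 0.22 for Fasn, -0.29 to 0.50 for Acss2, -0.81 to 0.57 for Abca1, -0.17 to 0.46 for Abcg1 and -0.08 to 0.38 for Nr1h2. The cause was not tested.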

Other observations

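Genes of fatty acid oxidation, the breakdown of fatty acids in mitochondria and peroxisomes, leaned to the higher side in knockout cells. Of 12 genes tested, 9 had a positive log2 fold change, with a median of 0.33 (all loci -0.05), and in 5 of them all knockout libraries lay above all wild-type libraries, where 5.18% of all loci did. Cpt1a, which brings long chains into mitochondria, stood at 195, 69.6 and 133 CPM in wild-type and 233, 220 and 239 CPM in knockout libraries (log2 fold change 0.80, standard error 0.37). Acadl, a dehydrogenase of long chains, stood at 97.8, 61.5 and 83.6 against 122, 107 and 127 CPM (0.55, standard error 0.20). Ppargc1a, a coactivator of oxidative genes, was scarce, at 1.18, 0.258 and 0.476 against 2.07, 1.8 and 1.84 CPM (1.56, standard error 0.59). In all 3 genes wild-type replicate 2 was the lowest library and replicate 1 the wild-type library nearest to knockout. None passed edgeR's test (adjusted p = 0.763 for each). The median ran from 0.22 without wild-type replicate 2 to 0.54 without wild-type replicate 1, and was 0.12, with 12 of 12 positive, without the 3 libraries richest in macrophage markers.

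Plin2, which coats lipid droplets and was read among LXR targets, stood at 749.5, 182 and 475 CPM in wild-type and 989, 956 and 794 CPM in knockout libraries (log2 fold change 0.96, standard error 0.50, edgeR adjusted p = 0.763). All knockout libraries lay above all wild-type libraries, as they did for 5.18% of all loci. The narrowest gap was between wild-type replicate 1 and knockout replicate 3. Of the 9 loci tested in that list, Plin2 was the only 1 so separated, and 6 had a negative log2 fold change.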
